A study of Mus musculus with 12 samples.

Results

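Respiratory complex I, the NADH dehydrogenase of the mitochondrial inner membrane, was followed through the transcripts of its nuclear-encoded subunits. The members are the 37 gene symbols, of 24411 in the files, that read Nduf, then a, ab, b, c, s or v, then a number. The assembly factors, whose symbols start with Ndufaf, were left out, and the mitochondrially encoded subunits and Ndufb1 were not analysed here. All 37 members reached 1 TPM in 2 or more libraries and were among the 16133 genes tested. TPM is a transcript level corrected for transcript length and set to a common total in every library.

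The series comprised 12 RNA-seq libraries of NR5A1(+) cells, the somatic cells of the fetal mouse gonad that carry the nuclear receptor NR5A1, in 5 groups. Gonads taken at E10.8 with the neighbouring aorta, mesonephros and mesenchyme were kept in DMEM and horse serum on filters, over 19.2 h. They gave control XY (n = 3), Dfo XY (n = 3) and control XX (n = 2) libraries, and Dfo, the iron chelator deferoxamine, was used at 150 µM. Gonads at E11.5, called WT in the titles, gave XY (n = 2) and XX (n = 2) libraries, and their labels repeat the culture protocol, so their collection is not settled by it. Every group carried the genotype Nr5a1-hCD271, a surface tag under the Nr5a1 gene. The series title places the XY comparison in the setting of iron deficiency. Whether replicates came from separate litters is not stated, and the p-values then rest on a spread between samples that may be technical.

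Complex I takes electrons from NADH and passes them to ubiquinone, and it pumps protons as it does so. The electrons enter at a flavin in the matrix arm and run along a chain of iron-sulfur clusters, which are made in the mitochondrion from iron and sulfur and sit in NDUFV1, NDUFV2, NDUFS1, NDUFS7 and NDUFS8. NDUFS3 also belongs to the nuclear-encoded core, and most other members are accessory subunits of the matrix arm, of the membrane arm near it (proximal) or of the membrane arm far from it (distal). Iron chelation is known to stabilise hypoxia-inducible factors, whose prolyl hydroxylases need iron.

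Several library-wide values differed between the groups. Rpph1, the RNA of RNase P, held 15.3% to 20.3% of all TPM in control XY, 19.5% to 23.6% in Dfo XY, 6.96% to 7.20% in control XX and 8.57% to 12.2% at E11.5, and a larger share of 1 RNA lowers the TPM of all others. Xist, the RNA that coats the inactive X chromosome, stood at 13.6 and 24.6 TPM in Dfo XY replicates 1 and 2, at 0.90 or below in the other XY libraries and at 124 to 175 in the XX libraries, so these Dfo libraries go in part against their label. In both cultured XY groups, replicates 1 and 2 were nearer to each other than to replicate 3: members differed by a median of 0.14 (control) and 0.10 (Dfo) on the log2 scale between replicates 1 and 2, against 0.19 to 0.27 for pairs with replicate 3. All 6 gonadal somatic markers were above 1 TPM in every library, with summed levels of 648 to 794 TPM in control XY and 492 to 558 in Dfo XY. The 6 mesenchyme markers summed to 526 to 604 TPM in control XY and 316 to 362 in Dfo XY, with 4 called lower, as were 4 of the gonadal somatic markers. Over all 16133 genes tested, 10.5% were called lower and 4.98% higher in Dfo XY than in control XY. The 6 mesonephric epithelium markers summed to 95.8 to 104 and 49.4 to 82.9 (2 called lower), and the 6 neural crest and neuron markers to 55.8 to 139.7 and 44.7 to 72.4 (Tubb3 and Stmn2 called lower, Th higher). The 6 erythroid markers summed to 224 to 1871 and 939 to 2426, and none of them nor of the endothelial and macrophage markers was called in limma (Alas2 and Pecam1 alone had an unadjusted p below 0.05). The 7 germ cell markers summed to 30.5 to 31.5 TPM in control XY and 18.1 to 26.6 in Dfo XY, with 1 called lower. Of these, Pou5f1, Dppa3, Dazl, Dppa5a and Nanos3 were each listed at 0 in some library. The part of these values in the results was not tested, and in bulk RNA fewer cells of a type and less RNA per cell cannot be told apart.

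The subunits were abundant transcripts in these cells. The median of the members' mean TPM was 129, above that of 94.2% of the genes tested, and 22 of 37 had a mean above 100 TPM. The highest mean was that of Ndufa6, a matrix-arm subunit, at 286 TPM, and the lowest that of Ndufa11, a subunit at the junction of the arms, at 27.3 TPM. Among the iron-sulfur subunits Ndufs7 led with a mean of 129 TPM and Ndufs1 was lowest with 74.8. No member was listed at 0 in any library. The Dfo XY group had the lowest mean of the 5 groups for 30 of 37 members, as the plot of levels by library shows. The same count was not made over all genes. The median TPM of all genes tested was also lowest in Dfo XY, averaging 11.6 over its libraries, against 13.2 to 15.8 in the other groups.

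**Figure D1:**
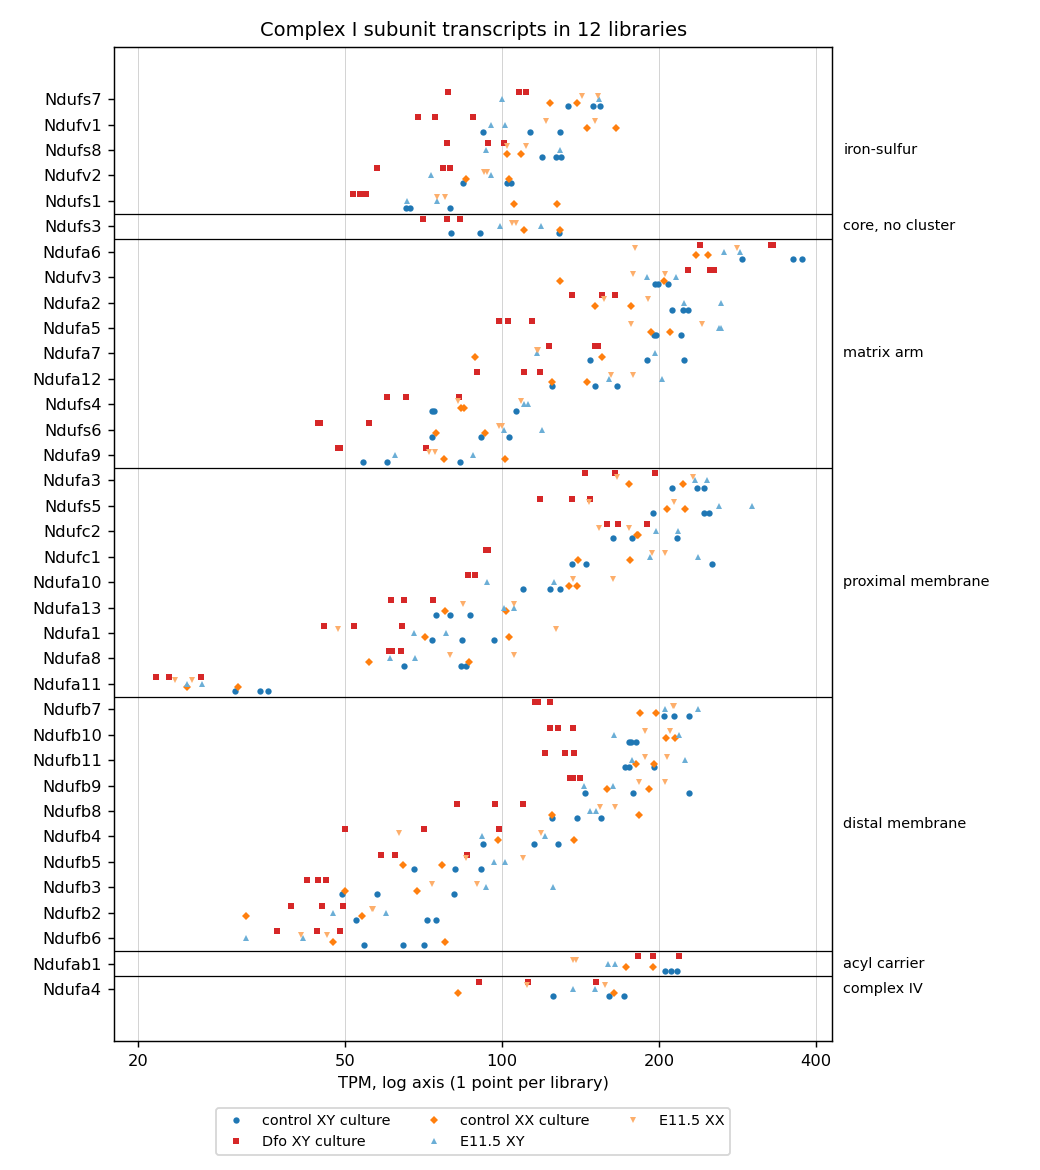
TPM of 36 complex I subunits (log axis) in the 12 libraries, 1 point per library, coloured by group and ordered by the subunit's place in the complex. The Dfo XY squares lie at the left for most subunits, and to the right of all other points for Ndufv3.

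The promoters of 33 of the 37 members were found among the RefSeq sequences of build GRCm38.p6. The sequences shown are those of 3 iron-sulfur subunits (Ndufv1, Ndufv2 and Ndufs8), of Ndufb7, which had the smallest adjusted p under Dfo, and of Ndufv3, the member that lay above 0 there. Each is the part of the 250 bases before the transcription start that overlaps no annotated exon, printed 5′ to 3′ on the gene's strand. Capitals mark matches to CCGGAA, the core that ETS-family factors bind, or to ACGTG or GCGTG, the core of the hypoxia response element, on either strand.
Ndufv1: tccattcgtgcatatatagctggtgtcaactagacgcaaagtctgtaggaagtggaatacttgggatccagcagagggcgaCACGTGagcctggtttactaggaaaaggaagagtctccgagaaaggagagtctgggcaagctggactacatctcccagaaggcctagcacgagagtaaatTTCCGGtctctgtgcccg
Ndufv2: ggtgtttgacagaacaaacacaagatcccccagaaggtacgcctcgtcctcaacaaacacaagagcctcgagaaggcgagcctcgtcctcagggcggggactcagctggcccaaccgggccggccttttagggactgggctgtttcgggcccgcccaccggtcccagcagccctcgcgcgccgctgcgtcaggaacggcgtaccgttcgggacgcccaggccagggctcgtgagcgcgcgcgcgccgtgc
Ndufs8: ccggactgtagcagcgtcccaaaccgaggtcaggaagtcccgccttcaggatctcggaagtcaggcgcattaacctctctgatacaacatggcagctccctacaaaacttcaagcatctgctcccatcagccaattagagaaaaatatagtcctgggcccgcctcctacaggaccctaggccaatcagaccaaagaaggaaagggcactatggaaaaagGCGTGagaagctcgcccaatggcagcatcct
Ndufb7: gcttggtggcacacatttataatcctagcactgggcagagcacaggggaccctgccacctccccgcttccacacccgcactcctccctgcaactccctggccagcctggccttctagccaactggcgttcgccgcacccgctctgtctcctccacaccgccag
Ndufv3: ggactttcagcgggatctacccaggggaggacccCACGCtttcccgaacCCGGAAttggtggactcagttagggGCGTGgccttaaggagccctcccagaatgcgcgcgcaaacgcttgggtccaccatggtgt
They lie at chr19:4012807-4013005 (minus strand) for Ndufv1, chr17:66101560-66101809 (minus) for Ndufv2, chr19:3912775-3913024 (minus) for Ndufs8, chr8:83566508-83566670 (plus) for Ndufb7 and chr17:31519981-31520114 (plus) for Ndufv3. The Ndufv1 and Ndufv3 sequences each held 1 ETS core and 2 hypoxia cores, the pair in Ndufv1 being ACGTG read on both strands of the same 6 bases. That of Ndufs8 held 1 hypoxia core, and those of Ndufv2 and Ndufb7 held neither.

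Over the whole 250 bases on both strands, the ETS core stood in 8 of the 33 promoters (24.2%) against 16.9% of 17224 genes in the files. The hypoxia core stood in 11 (33.3%) against 47.7%. The GC box GGGCGG stood in 14 (42.4%) against 46.2%, and the YY1 core AAGATGG in none against 4.91%. The NRF1 motif stood in 2 (6.06%) against 2.82%. A match to the NRF1 motif can hold a hypoxia core, and no other match to 1 of these motifs can hold a whole match to another. Among the 15 matched members that fell with Dfo, 5 held a hypoxia core and 4 an ETS core. Among the 18 matched members that were not called, 6 held a hypoxia core and 4 an ETS core. A match is a run of letters and not a shown binding site. A gene was counted if any of its transcription starts had a match. The 33 members had 35 starts and the 17224 genes 20788, so the shares rest on unequal amounts of sequence per gene.

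The comparison of Dfo XY with control XY in culture asked what the chelator did to transcripts of XY gonadal cells. With Dfo, 18 of the 37 subunits fell, none rose and 19 were not called, where over all 16133 genes 10.5% were called lower and 4.98% higher (15.5% in either direction). Among the 5403 genes at least as abundant as the lowest member, 17.5% were called lower and 8.77% higher, with a median change of -0.11. A gene was called at a Benjamini-Hochberg adjusted p below 0.05 in limma, and "fell" and "rose" are used only of called genes. The log2 change, computed on TPM + 1, was below 0 for 36 of 37 members, with a median of -0.46 against -0.17 for all genes tested, and 34 members lay below the all-gene median. At an unadjusted p below 0.05, 26 members were lower and none higher, where 29.5% of all genes passed in either direction. The 3 Dfo libraries lay wholly below the 3 controls for 26 members and wholly above them for 1, against 26.5% and 11.6% of all genes. They lay below all 9 other libraries for 15 members (40.5%, against 14.2% of all genes) and above them for 1 (against 3.48%).

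Summed over the 37 subunits, the control XY libraries held 5182, 5089.8 and 5519 TPM and the Dfo XY libraries 3847, 4018 and 3866. The control XX libraries held 4927 and 5152, those of XY at E11.5 held 5304 and 5437, and those of XX at E11.5 held 4798 and 5343. Each Dfo library therefore held less complex I transcript than any of the 9 others. By replicate number, the Dfo sum was 74.2%, 78.9% and 70.1% of the control sum. Deviations of same-numbered libraries from their group means correlated across genes, with r of 0.21, 0.12 and 0.34 for numbers 1, 2 and 3. Control 2 with Dfo 1 gave 0.18 and control 1 with Dfo 2 gave 0.14, so replicates 1 and 2 were not matched by number. In a fit of control XY and Dfo XY alone with the replicate number as a block, 31 members were called, 30 lower and Ndufv3 higher. Over all genes, 2498 were called in the fit of all 12 libraries, 2979 with only these groups and 4339 with the block added. Of the last, 1301 were higher and 3038 lower.

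**Figure D2:**
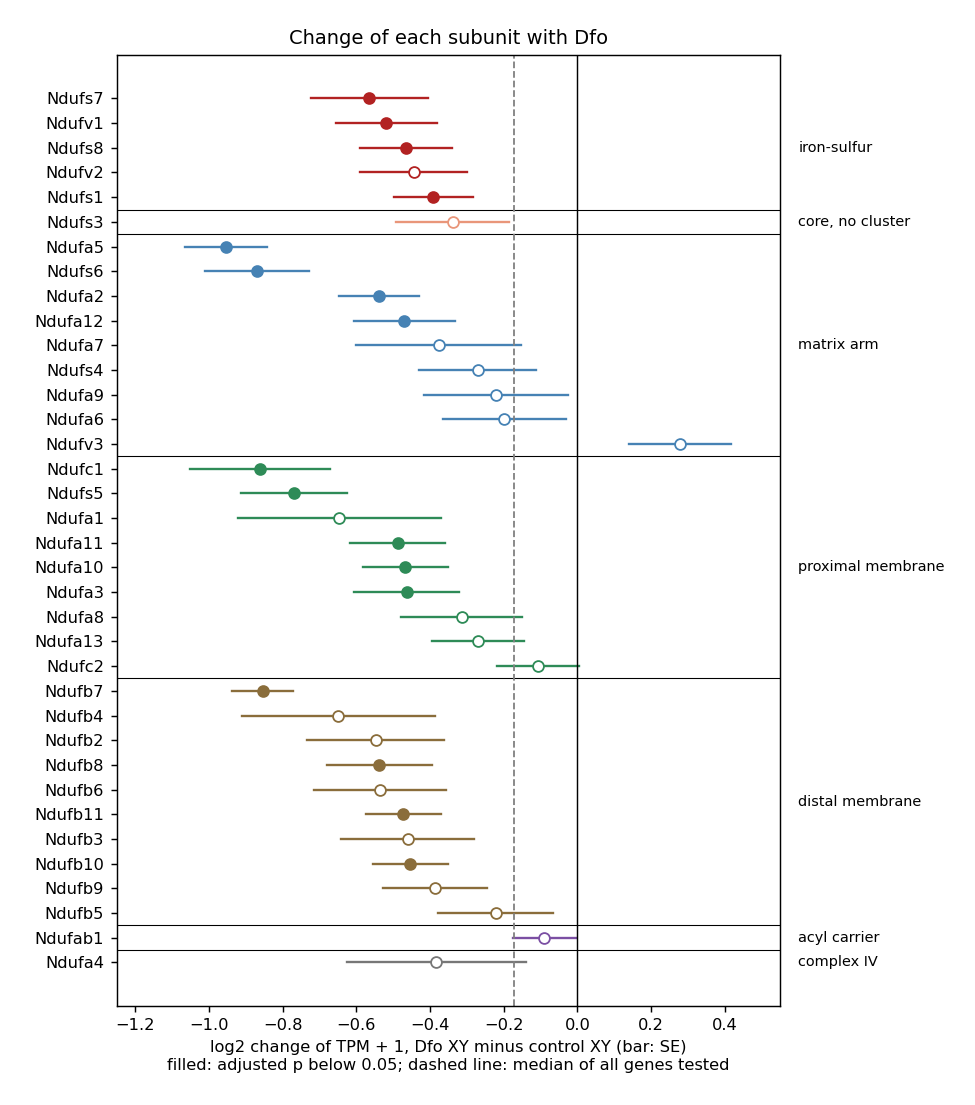
Log2 change of TPM + 1 with Dfo in XY culture (point) and its SE (bar) for 36 subunits, by place in the complex. Filled points are 17 called subunits, all left of 0, and the dashed line is the median of all genes tested (-0.17).

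The iron-sulfur subunits fell in 4 of 5 cases, with a median change of -0.46, and the other 32 members fell in 14 cases, also with a median of -0.46. The medians differed by -0.00198 (iron-sulfur minus other), which is less than the spread between libraries. Ndufs7, whose cluster is the last before ubiquinone, stood at 154, 149 and 134 TPM in control XY and at 108, 111 and 78.7 with Dfo, with no overlap. Its log2 change was -0.56 ± 0.16 (SE), adjusted p = 0.0312. Ndufv1, which binds NADH and the flavin, stood at 91.8, 113 and 129 TPM in control XY and 68.8, 74.4 and 87.9 with Dfo. All 3 Dfo libraries were lower, with a log2 change of -0.52 ± 0.14 (adjusted p = 0.023).

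Ndufs8, a subunit with a pair of clusters near the membrane, was at 129.6, 127 and 119 TPM in control XY and 93.9, 101 and 78.3 with Dfo. The groups did not overlap, and the change was -0.46 ± 0.12 (adjusted p = 0.0252). Ndufs1, the largest core subunit, with several clusters, was at 65.4, 66.6 and 79.4 TPM in control XY and 53.4, 54.8 and 51.7 with Dfo. Its Dfo values were close together and below every other library, with a change of -0.39 ± 0.11 (adjusted p = 0.0278). Ndufv2, whose cluster lies beside the flavin and off the main chain, was at 102, 104 and 84.2 TPM in control XY and 79.4, 77.03 and 57.4 with Dfo. Its libraries did not overlap either, but its change of -0.44 ± 0.15 was not called (adjusted p = 0.0583).

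Single libraries decided several of the iron-sulfur calls. Ndufs1 lost its call without any 1 of 5 libraries (control XY 2 and 3, and each Dfo XY library), Ndufs7 without control XY 1, control XY 2 or Dfo XY 3, Ndufs8 without control XY 1, control XY 2, Dfo XY 1 or Dfo XY 3, and Ndufv1 without control XY 2, control XY 3, Dfo XY 1 or Dfo XY 2. The highest adjusted p under any alternative was 0.172 for Ndufs1, 0.17 for Ndufs7, 0.168 for Ndufs8 and 0.41 for Ndufv1. Without the Dfo XY libraries that hold Xist, which leaves Dfo XY replicate 3 alone, Ndufs7 (-0.88, adjusted p = 0.0313), Ndufs8 (-0.67, adjusted p = 0.044) and Ndufv2 (-0.74, adjusted p = 0.0442) were called. Ndufs1 (-0.43, adjusted p = 0.172) and Ndufv1 (-0.32, adjusted p = 0.41) were not, and the iron-sulfur median then lay 0.24 below that of the others. The 5 iron-sulfur subunits made up 9.89% to 11.01% of the summed complex I TPM in control XY and 9.16% to 10.5% in Dfo XY.

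**Figure D3:**
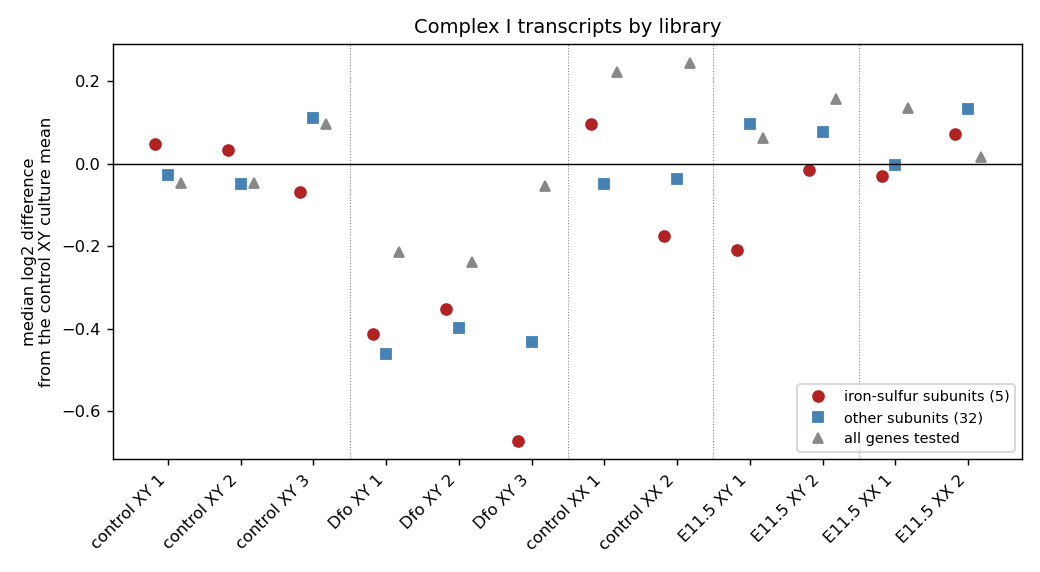
Median log2 difference from the control XY culture mean in each library, for the 5 iron-sulfur subunits (circles), the other 32 subunits (squares) and all genes tested (triangles). In Dfo XY the subunits lie between -0.35 and -0.67 and all genes between -0.05 and -0.24. In Dfo XY replicate 3 the iron-sulfur subunits lie at -0.67 and the others at -0.43.

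In each Dfo library, and in both control XX libraries, the subunit medians lay below the all-gene median. The same held in E11.5 XY replicate 2 (-0.02 and 0.08 against 0.16) and in E11.5 XX replicate 1 (-0.03 and -0.0022 against 0.14). The median difference from the control XY mean was -0.41, -0.35 and -0.67 for the iron-sulfur subunits, -0.46, -0.40 and -0.43 for the others, and -0.21, -0.24 and -0.05 for all genes, in Dfo XY replicates 1, 2 and 3. In control XX replicates 1 and 2 it was 0.10 and -0.17 for the iron-sulfur subunits, -0.05 and -0.04 for the others and 0.22 and 0.24 for all genes. Beside control XY, the all-gene median was thus higher in control XX and lower in Dfo XY. The E11.5 libraries gave -0.21 to 0.07 for the iron-sulfur subunits, -0.0022 to 0.13 for the others and 0.02 to 0.16 for all genes.

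Ndufs3, a core subunit without a cluster, was at 90.7, 79.6 and 129 TPM in control XY and 70.4, 78.3 and 82.9 with Dfo. Its groups overlapped and its change of -0.34 ± 0.15 was not called (adjusted p = 0.162).

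Of the 9 accessory subunits of the matrix arm, 4 fell, and this arm held the widest range of changes. Ndufa5, an accessory subunit on the side of the matrix arm, was at 198, 196 and 221 TPM in control XY and 103, 98.8 and 114 with Dfo, against 177 to 263 in the 6 remaining libraries. Every Dfo value was below every other one, and the change of -0.95 ± 0.11 (adjusted p = 0.000137) was the largest fall among the members. Ndufs6, a zinc-binding subunit added late in assembly, was at 73.2, 103 and 90.9 TPM in control XY and 44.6, 55.5 and 44.2 with Dfo, a change of -0.87 ± 0.14 (adjusted p = 0.00145). Ndufa2, which has a thioredoxin-like fold, was at 223, 212 and 227 TPM in control XY and 165, 136 and 156 with Dfo. Its groups did not overlap, with a change of -0.54 ± 0.11 (adjusted p = 0.00594). Ndufa12 was the other to fall, by 0.47 (adjusted p = 0.0371), a call lost without control XY 1, control XY 2, Dfo XY 2 or Dfo XY 3. Without the Dfo XY libraries that hold Xist the adjusted p of Ndufa2 was 0.0906.

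The remaining matrix-arm subunits were not called. Ndufa9, which binds a nicotinamide nucleotide, was at 53.97, 60.1 and 83.03 TPM in control XY and 48.4, 48.8 and 71.4 with Dfo, with overlap and a change of -0.22 ± 0.20 (adjusted p = 0.495). Ndufa6, a subunit of the LYR-motif family that binds the acyl carrier protein, was at 377, 362 and 289 TPM in control XY and 331, 328 and 240.2 with Dfo, a change of -0.20 ± 0.17 (adjusted p = 0.473). Ndufs4 and Ndufa7 gave -0.27 and -0.38.

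Ndufv3, a small subunit beside NDUFV1 and NDUFV2, went the other way and was chosen for mention after its values were seen. It was at 197, 199 and 208 TPM in control XY, 228, 251 and 255 with Dfo, 129 and 204 in control XX, 189.6 and 216 in XY at E11.5, and 178 and 206 in XX at E11.5. All 3 Dfo values exceeded the 9 others. The change of 0.28 ± 0.14 was not called (adjusted p = 0.203), while it was called in a fit of these 2 groups alone (adjusted p = 0.0437) and with the replicate block (adjusted p = 0.0127).

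Of the 9 subunits of the proximal membrane arm, 5 fell. Ndufc1 was at 145, 136 and 253 TPM in control XY and at 93.2, 94.01 and 93.7 with Dfo, so the Dfo libraries agreed closely while control replicate 3 stood high. Its change was -0.86 ± 0.19 (adjusted p = 0.00929). Ndufs5, a cysteine-motif protein on the intermembrane-space side, was at 249, 195 and 245 TPM in control XY and 136, 118 and 147 with Dfo, with no overlap and a change of -0.77 ± 0.14 (adjusted p = 0.00374). Ndufa10, which resembles nucleoside kinases, fell by 0.47, Ndufa11 by 0.49 and Ndufa3 by 0.46 on the log2 scale (adjusted p = 0.0171, 0.0228 and 0.046). The call of Ndufa10 was lost without control XY 2 or Dfo XY 2, that of Ndufa11 without control XY 1, control XY 3, Dfo XY 1 or Dfo XY 3, and that of Ndufa3 without any 1 of 7 libraries (the 3 control XY and 2 E11.5 XY libraries, and Dfo XY 1 and 3). Without the Dfo XY libraries that hold Xist, Ndufc1 and Ndufs5 had adjusted p = 0.131 and 0.119.

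Ndufa1, an X-linked subunit (chromosome X, 37187588 to 37191163, mm10), was at 73.3, 83.7 and 96.6 TPM in control XY and 51.9, 45.4 and 64.3 with Dfo. The groups did not overlap, but E11.5 XX spanned 48.3 and 127, and the change of -0.65 ± 0.28 was not called (adjusted p = 0.139). Ndufc2 was at 164, 178 and 216 TPM in control XY and 159, 167 and 189.9 with Dfo, a change of -0.11 ± 0.11 with a 95% interval of -0.35 to 0.14 (adjusted p = 0.572). Ndufa8 and Ndufa13 gave -0.31 and -0.27 and were not called.

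All 10 subunits of the distal membrane arm had changes below 0, from -0.85 to -0.22, and 4 fell. Ndufb7, a cysteine-motif protein on the intermembrane-space side (chromosome 8, 83566671 to 83571626, mm10), was at 214, 204 and 229 TPM in control XY and 124, 116 and 117 with Dfo. The other groups lay at 184 and 198 (control XX), 237 and 205 (XY at E11.5) and 213 and 214 (XX at E11.5). The Dfo libraries thus lay below all 9 others, and the change was -0.85 ± 0.08 (adjusted p = 3.13e-05). Ndufb8 was at 139, 125 and 155 TPM in control XY and 82.1, 96.8 and 109.6 with Dfo, a change of -0.54 ± 0.14 (adjusted p = 0.0236). It lost its call without any 1 of 4 libraries (control XY 1 and 3, Dfo XY 1 and 2). Ndufb11, the other X-linked member (chromosome X, 20615326 to 20617619, mm10), was at 196, 175 and 172 TPM in control XY and 121, 138 and 132 with Dfo, with no overlap and a change of -0.47 ± 0.10 (adjusted p = 0.00854). Ndufb10 fell by 0.45 (adjusted p = 0.0108). The calls of Ndufb11 and Ndufb10 were each lost under 3 of 22 alternatives. These were median-of-ratios scaling, replicates 1 and 2 of cultured XY averaged, and the fit without the Dfo XY libraries that hold Xist. Ndufb4 changed by -0.65 ± 0.26, a larger estimate than that of Ndufb8, but its libraries were more variable and it was not called (adjusted p = 0.117).

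Ndufab1, the mitochondrial acyl carrier protein that is bound in both arms and also serves lipoate and iron-sulfur cluster synthesis, was at 217, 206 and 211 TPM in control XY and 195, 219 and 183 with Dfo. The groups overlapped, and the change of -0.09 ± 0.09 had a 95% interval of -0.28 to 0.10 (adjusted p = 0.529). Ndufa4 carries a complex I name but is now known as a subunit of complex IV, and without it 18 of 36 members fell. It was at 171, 160.1 and 125 TPM in control XY and 112, 152 and 90.3 with Dfo, with overlap and a change of -0.38 ± 0.24 (adjusted p = 0.324). Its paralog Ndufa4l2, which hypoxia-inducible factor is known to raise, is no member and stood at 9.80, 9.48 and 6.87 TPM in control XY and 66.3, 51.03 and 39.2 with Dfo. The remaining libraries ranged from 0 to 10.4 TPM, so every Dfo library was higher than all others, while the change of 2.43 ± 0.78 narrowly missed the threshold (adjusted p = 0.0531).

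The count of 18 depended on the scaling and on single libraries, while the direction did so less. Under median-of-ratios scaling 7 members were called and the member median was -0.31 against -0.05 for all genes; the calls over all genes then split into 1519 higher and 1022 lower, against 803 and 1695 on TPM. Without the Dfo XY libraries that hold Xist, 6 were called, and 6 with replicates 1 and 2 of the cultured XY groups averaged as 1 library, where calls over all genes went from 2498 to 901 and 850. Without Dfo XY replicate 1, 11 were called, and 1598 over all genes. Ndufa5, Ndufs6 and Ndufb7 were called lower under all 22 alternatives, 32 members stayed below 0 under all of them, and 29 stayed below the all-gene median.

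Complex I transcripts are short, and short transcripts in general had Dfo changes below the all-gene median. The longest coding transcript had a median of 971 bases over the members and 3072 over 14631 genes tested. Genes no longer than the median member (n = 785) had a median change of -0.38, and 20.4% of them were called lower. Those among them that were also as abundant as the lowest member (n = 351) had a median of -0.39 with 37.6% called lower, against -0.46 and 48.6% for the members. Both sets include the members up to the median length, and the remaining members are longer than every gene in them. Spearman's rho between length and change was 0.18 across all genes tested, 0.29 across 5192 abundant genes and 0.17 across the 37 members, which share libraries and are not independent. The part of transcript length in the result was not tested.

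Several members share sequence with other loci, so their values are less certain. Ndufa12, Ndufab1, Ndufb11, Ndufb3, Ndufb4, Ndufs3, Ndufs5 and Ndufs6 each have an annotated processed pseudogene at least 95% identical over at least 80% of the coding sequence, of which only BC002163, the copy of Ndufs5, has a row of its own in the files. Exons of Ndufa2, Ndufs1, Ndufs3, Ndufs6, Ndufb11 and others overlap those of a gene on the opposite strand (Tmco6, Eef1b2, Kbtbd4, Mrpl36 and Rbm10, in that order), and the sources used here do not give the strand setting of the counting.

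Subunits of the other respiratory complexes lay below 0 as well, with smaller medians. Of 38 subunits of complexes II to V, 13 fell, none rose and all 38 changes were below 0, with a median of -0.34. Over all genes tested, 10.5% were called lower and 4.98% higher. Beside the all-gene median, complex I lay at -0.29 and complexes II to V at -0.17. In complex II, succinate dehydrogenase, 2 of 4 subunits fell, among them the iron-sulfur subunit Sdhb, from 123, 138 and 145 TPM in control XY to 87.02, 89.9 and 78.8 with Dfo (-0.66 ± 0.11, adjusted p = 0.0019). In complex III 2 of 9 fell, Cyc1, which carries a haem, by 0.60 and Uqcr11 by 0.61 (adjusted p = 0.00203 and 0.00566). In complex IV, cytochrome c oxidase, 3 of 10 fell (Cox6c, Cox5a and Cox7b), led by Cox6c, from 1819, 1949 and 1975 TPM in control XY to 1167, 1128 and 1085 with Dfo (-0.76 ± 0.08, adjusted p = 7.93e-05). In complex V, the ATP synthase, 6 of 15 fell, with Atp5e at -0.76 ± 0.16 (adjusted p = 0.00671). The call of Cox7b was lost under 11 of 22 alternatives, among them the fits without control XY 2, control XY 3, Dfo XY 1 or Dfo XY 2 (highest adjusted p = 0.524), and that of Cox5a without control XY 2 or Dfo XY 1 (highest adjusted p = 0.371 under any alternative). Sdhb, Cyc1, Cox6c and Atp5e were called under all 22, and Uqcr11 under all but the fit without the Xist libraries (adjusted p = 0.0679).

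The genes that build complex I and its clusters moved less evenly. Of 18 assembly factors 2 fell and none rose, with a median of -0.31. Over all genes tested, 10.5% were called lower and 4.98% higher, with a median of -0.17. Ndufaf2, a chaperone of late assembly, was at 61.3, 78.6 and 75.6 TPM in control XY and 48.6, 51.2 and 44.8 with Dfo (-0.56 ± 0.13, adjusted p = 0.012). Ndufaf4 was at 12.7, 12.2 and 12.2 TPM in control XY and 7.61, 6.57 and 8.39 with Dfo (-0.65 ± 0.16, adjusted p = 0.016). The call of Ndufaf2 was lost without control XY 2, and that of Ndufaf4 without control XY 1, control XY 2 or Dfo XY 2. Of 15 genes of mitochondrial iron-sulfur cluster assembly, 5 fell and 1 rose. Nfs1, the cysteine desulfurase that supplies sulfur, was at 13.98, 12.7 and 14.9 TPM in control XY and 9.06, 5.93 and 6.02 with Dfo (-0.91 ± 0.20, adjusted p = 0.00969). Fdxr, the ferredoxin reductase, was at 27.2, 21.6 and 33.5 TPM in control XY and 14.9, 12.7 and 11.4 with Dfo (-1.01 ± 0.21, adjusted p = 0.00627). The scaffold Iscu, the glutaredoxin Glrx5 and the transfer factor Bola3 fell by 0.76, 0.70 and 0.93. Hspa9, the matrix chaperone, rose from 218, 217 and 314 TPM to 369, 410.4 and 427 (0.70 ± 0.13, adjusted p = 0.00403).

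None of 12 regulators of mitochondrial biogenesis was called in limma. At an unadjusted p below 0.05, 2 were lower and 1 higher, where 29.5% of all genes passed in either direction. Yy1 was the higher one, and among the 12 were Ppargc1a (-0.64, adjusted p = 0.145), Nrf1 (-0.26, adjusted p = 0.163) and Tfam (0.02, adjusted p = 0.914). In contrast, 8 of 9 genes of hypoxia-linked mitochondrial remodelling rose and none fell, where 4.98% of all genes were called higher and 10.5% lower. Bnip3, a receptor for mitophagy, stood at 22.7, 16.8 and 29.7 TPM in control XY and 265, 296 and 289 with Dfo (3.60 ± 0.19, adjusted p = 2.28e-07). Pdk1, which holds pyruvate back from the mitochondrion's oxidation, stood at 10.6, 9.66 and 16.04 TPM in control XY and 126, 134 and 143 with Dfo (3.40 ± 0.22, adjusted p = 1.35e-06). Ldha, the lactate dehydrogenase subunit, stood at 161, 139 and 260.2 TPM in control XY and 1268, 1271 and 1673 with Dfo (2.94 ± 0.21, adjusted p = 3.1e-06). These changes were several times larger than those of the complex I subunits. The ninth gene was Ndufa4l2, described above.

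**Figure D4:**
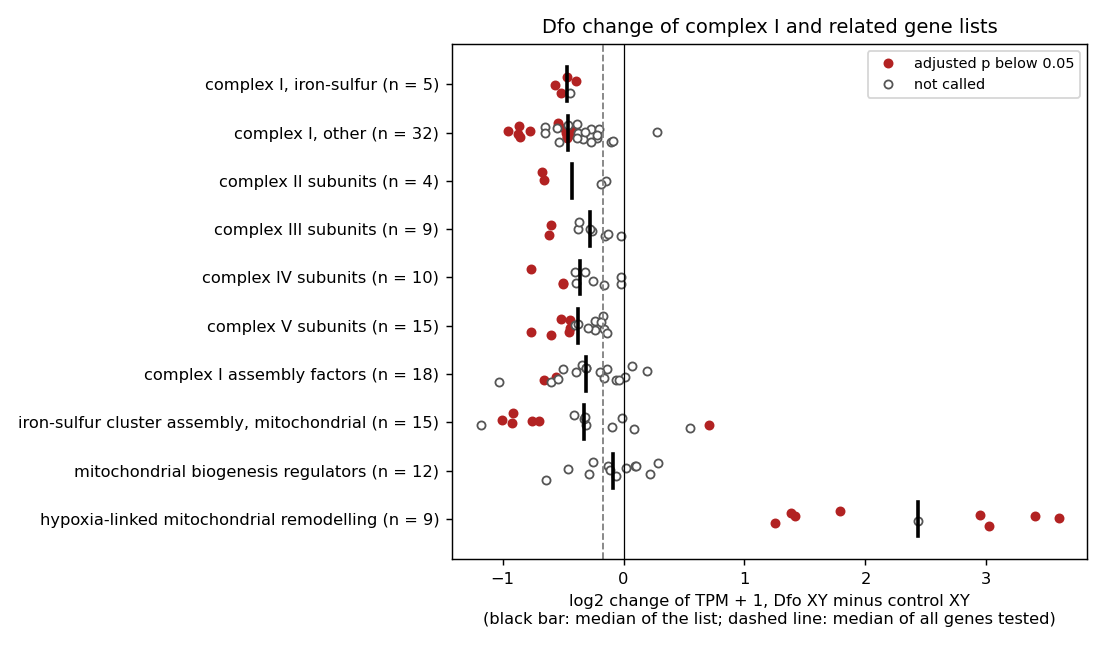
Log2 change of TPM + 1 with Dfo for each gene (point) of complex I and of related lists, with the median of each list (black bar) and of all genes tested (dashed line). Red points are called genes: those of the respiratory complexes lie below 0 and those linked to hypoxia between 1.25 and 3.60.

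Control XY and control XX cultures were compared to find subunits that differ with sex after culture. In TPM, 2 subunits were higher and 3 lower in XY, where 2.97% of all genes were called higher and 22.2% lower (25.2% in either direction). Among the 5403 genes at least as abundant as the lowest member, 2.09% were called higher and 50.6% lower, with a median of -0.42. Ndufs1 stood at 65.4, 66.6 and 79.4 TPM in XY and 127 and 105 in XX, with no overlap and a difference (XY minus XX) of -0.72 ± 0.12 (adjusted p = 0.00209). Ndufv1 was at 91.8, 113 and 129 TPM in XY and 145 and 165 in XX (-0.49 ± 0.15, adjusted p = 0.0345). Both are core subunits of the matrix arm, and both XX libraries exceeded all 3 XY libraries for each. The call of Ndufv1 was lost without control XY 1, control XY 2, control XX 1 or control XX 2.

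The reverse held for Ndufa2, at 223, 212 and 227 TPM in XY and 151 and 177 in XX (0.43 ± 0.12, adjusted p = 0.0221). Ndufb2 was at 71.8, 52.4 and 74.6 TPM in XY and 32.3 and 53.7 in XX, so its libraries overlapped although it was called (0.64 ± 0.21, adjusted p = 0.0401). The call of Ndufa2 was lost without control XY 1 or control XX 1, and that of Ndufb2 without control XY 1, control XY 3, control XX 1 or either E11.5 XX library. The members' median difference was 0.06, against -0.22 for all genes, and 6 of 37 members lay below the all-gene median. This comparison was sensitive to scaling: median-of-ratios scaling moved the all-gene median to 0.07 and gave 6 members higher and none lower, and over all genes 528 higher and 499 lower calls, against 479 and 3585 on TPM. Ndufs1 was then not called (-0.39, adjusted p = 0.0594), nor was it after quantile normalization (-0.29, adjusted p = 0.166). The X-linked Ndufa1 (-0.03 ± 0.31, adjusted p = 0.962) and Ndufb11 (-0.06 ± 0.11, adjusted p = 0.75) were not called. Without control XY replicate 1 or without control XX replicate 1, 1 member was called, without control XY replicate 2 there were 3, and without control XY replicate 3 there were 8. Calls over all genes were 2311, 1920, 2311 and 4247 in that order, against 4064 with every library. The gonadal somatic markers summed to 648 to 794 TPM in these XY libraries and 1278 to 1350 in the XX libraries, with 5 of 6 called lower in XY, and 3 of 6 mesenchyme markers were called lower too. Those of mesonephric epithelium summed to 95.8 to 104 in XY and 47.5 to 65.8 in XX (4 of 6 called higher in XY), those of neural crest and neurons to 55.8 to 139.7 and 23.5 to 32.3 (5 of 6), the erythroid ones to 224 to 1871 and 148 to 164 (3 of 6) and the macrophage ones to 37.8 to 90.5 and 26.04 to 40.9 (1 of 6). The part of cell makeup in these differences was not tested.

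At E11.5 no subunit was called between XY and XX in limma, where 2.29% of all genes were (1.09% higher and 1.2% lower in XY). At an unadjusted p below 0.05, 5 members were higher and 3 lower in XY, where 19.6% of all genes passed in either direction. Ndufs5 came nearest, at 302 and 260.5 TPM in XY and 147 and 214 in XX (0.66 ± 0.18, adjusted p = 0.0649). Ndufa2 was next, at 224 and 264 TPM in XY and 157 and 190.4 in XX, higher in XY as it was in culture (0.49 ± 0.13, adjusted p = 0.0674). Ndufs1 was at 65.6 and 75.1 TPM in XY and 77.6 and 74.9 in XX, with overlap (-0.12 ± 0.13, adjusted p = 0.66).

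Cultured controls were set against E11.5 gonads within each sex, which share their E11.5 and control libraries with the comparisons above. In XY, 2 subunits were higher and 1 lower in culture, where 2.62% of all genes were called higher and 3.04% lower (5.66% in all). Ndufb6 was at 54.3, 64.6 and 70.7 TPM in culture and 41.5 and 32.2 at E11.5 (0.77 ± 0.20, adjusted p = 0.0458). Ndufb3 was at 49.1, 57.5 and 80.7 TPM in culture and 93.3 and 125 at E11.5 (-0.81 ± 0.20, adjusted p = 0.0378). Both belong to the distal membrane arm and moved in opposite directions. Ndufab1 was at 217, 206 and 211 TPM in culture and 165 and 160.0 at E11.5 (0.38 ± 0.10, adjusted p = 0.0408). The number called was 0 without any 1 of control XY replicate 1, control XY replicate 2, Dfo XY replicate 1, E11.5 XY replicate 1 or E11.5 XY replicate 2, and 1 call was left on leaving out Dfo XY replicate 2. Calls over all genes were 275 to 663 in these fits, against 913 with every library. Fitting only control XY culture and E11.5 XY called no member and 427 genes in all, and adding the replicate block called 8 members and 1360 genes. Pairing by number was not examined between cultured and E11.5 libraries, so nothing is drawn from this block.

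In XX, 2 subunits were higher in culture and none lower, where 7.36% of all genes were called higher and 1.71% lower (9.07% in all). At an unadjusted p below 0.05, 2 members were higher and 1 lower, where 24.5% of all genes passed in either direction. Ndufs1 was at 127 and 105 TPM in culture and 77.6 and 74.9 at E11.5 (0.60 ± 0.13, adjusted p = 0.015). Ndufab1 was at 173 and 195 TPM in culture and 137 and 139 at E11.5 (0.41 ± 0.10, adjusted p = 0.0291), so it was higher in culture in both sexes. Neither was called under median-of-ratios scaling or after quantile normalization, none of the members was called without control XX replicate 1 or without E11.5 XX replicate 2, and 1 was called without E11.5 XX replicate 1. Calls over all genes were 852 and 704 under those scalings and 570, 432 and 1348 without those libraries, against 1463. The difference of the culture effect between XY and XX was called for no member in limma, where 1.33% of all genes were called (0.192% higher and 1.14% lower). At an unadjusted p below 0.05 there were 2 members in each direction, where 20.8% of all genes passed in either direction. Nearest to a call was Ndufs1 (-0.60 ± 0.18, adjusted p = 0.0965).

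Cell type markers also differed between culture and E11.5. In XY the endothelial markers summed to 61.4 to 133 TPM in culture and 199 to 199.7 at E11.5 (2 of 6 called lower in culture), the macrophage markers to 37.8 to 90.5 and 12.2 to 28.1 (1 of 6 higher) and the neural crest and neuron markers to 55.8 to 139.7 and 23.4 to 28.1 (2 of 6 higher). In XX the endothelial markers summed to 104 to 118 TPM in culture and 262 to 325 at E11.5 (4 of 6 lower) and the erythroid markers to 148 to 164 and 899 to 1251 (2 of 6 lower). Also called in XX were 1 of 7 germ cell and 1 of 6 mesonephric epithelium markers (lower) and 1 of 6 macrophage and 1 of 6 gonadal somatic markers (higher). In XY, 1 of 7 germ cell markers was called higher. Over all genes, 2.62% were called higher and 3.04% lower in XY, and 7.36% and 1.71% in XX. The part of these marker differences in the members' values was not tested.

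**Figure D5:**
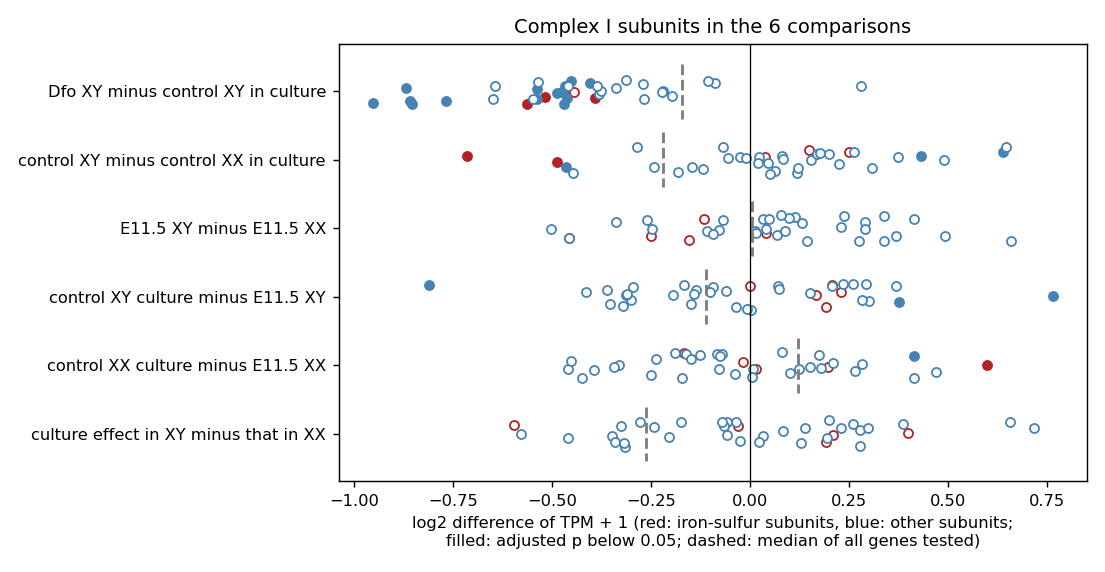
Log2 difference of TPM + 1 for the 37 subunits (points) in the 6 comparisons, with the iron-sulfur subunits in red, called subunits filled and the median of all genes dashed. Filled points number 18 for Dfo against control, 5 for XY against XX in culture, 3 and 2 for culture against E11.5, and none in the remaining comparisons.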

How the data were processed

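Gene expression was measured by RNA-seq (SMART-Seq Stranded Kit, per the labels' protocols) in 12 libraries of 5 groups. The authors deposited TPM per gene symbol, 1 table per library, made with STAR 2.7.10b, RSEM and R 4.1.2 on mm10, per the submitters' processing notes. The sources used here do not give the annotation, filters or strand setting. TPM keeps no depth, so the depth of each library is unknown and no counting interval was computed. From these values, log2(TPM + 1) was tested with limma 3.58.1 in R 4.3.3, with 1 coefficient per group, a variance trend and all 12 libraries, over the 16133 genes that reached 1 TPM in 2 or more libraries. The 6 contrasts were adjusted by Benjamini-Hochberg, each over all genes tested, and called below 0.05. Changes on this scale understate those of low genes. Positions and lengths came from GENCODE M21 on mm10, near copies from BLAST 2.17.0 and motifs were counted with Python 3.11.15. The method was run on simulated data whose libraries varied independently of each other. That run therefore cannot give the error rate of the calls in these libraries, where replicates 1 and 2 lay close together. The values of 1 member are not reported here, but it enters the counts and medians.

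The members, gene lists, tests and alternatives were chosen with earlier results of these data known. Named were the iron-sulfur subunits, Ndufa4, Ndufa4l2, X-linked members, the 8 largest called and 4 smallest Dfo changes, up to 6 called members per other contrast, up to 4 called genes per other list, and the most abundant of thinly named classes. Ndufv3 and further genes given by 1 value complete the counts. Replicate numbers of cultured XY libraries come from the titles. Their deviations from the group means correlated across 16133 genes with r of 0.21, 0.12 and 0.34 for numbers 1, 2 and 3, each above 0.1, so the numbers were taken to pair the samples, though control 1 with Dfo 2 gave 0.14 and control 2 with Dfo 1 gave 0.18. The 22 alternatives changed the pseudocount, filter, scaling, variance model, groups fitted, replicate block or libraries.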

Additional observations from a re-analysis of the deposited data

How the results depend on the processing

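Each comparison was recomputed under 22 alternatives. The number of complex I members called for Dfo XY against control XY, 18 in the fit reported, was 7 under median-of-ratios scaling, 11 when the 50 most abundant genes were dropped, 9 with no variance trend, 31 with the replicate block, 6 with replicates 1 and 2 of cultured XY averaged and 6 without both Dfo XY libraries that hold Xist. Calls over all genes, 2498 in the fit reported, were 2541, 2384, 1994, 4339, 850 and 901 in that order. Leaving out 1 library at a time gave 11 to 19 members, and 1490 to 2670 genes in all. For control XY against control XX (5), it was 3 with no filter, 1 with no variance trend, 9 with the replicate block and 1 with the averaged replicates, and 1 to 8 without single libraries (4064 genes in all, then 3655, 3245, 4324 and 1774). For E11.5 XY against E11.5 XX (0), single libraries gave 0 to 1, the 1 without E11.5 XX replicate 2. For culture against E11.5 in XY (3), it was 1 with no filter, 0 with no variance trend, 0 with only the groups compared, 8 with the replicate block, 0 with the averaged replicates, 1 without the Xist libraries and 0 to 4 without single libraries (913 genes in all, then 865, 691, 427, 1360, 195 and 694). For culture against E11.5 in XX (2), it was 0 under median-of-ratios scaling, 0 after quantile normalization, 1 when the 50 most abundant genes were dropped, 0 with no variance trend, 0 with only the groups compared, 1 with the replicate block, 1 with the averaged replicates and 0 to 2 without single libraries (1463 genes in all, then 852, 704, 984, 945, 671, 1427 and 857). For the difference of the culture effects (0), single libraries gave 0 to 1, the 1 without control XY replicate 3. Without single libraries, calls over all genes were 1920 to 4352 for control XY against control XX and 53 to 636 between the sexes at E11.5. They were 275 to 1489 for culture against E11.5 in XY, 432 to 1682 in XX and 14 to 731 for the difference of the culture effects. The iron-sulfur median minus that of the others under Dfo (-0.00198) became -0.24 without the Xist libraries and was -0.06 to 0.07 without single libraries.

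With Dfo, the sign turned for Ndufa9 (0.14) and Ndufb5 (0.11) without the Xist libraries, for Ndufc2 under median-of-ratios scaling (0.0448), without the Xist libraries (0.0398) and without control XY replicate 3 (single libraries gave -0.193 to 0.00721), and for Ndufab1 under median-of-ratios scaling (0.0608) and when the 50 most abundant genes were dropped (0.00588). None of these 4 was called. Averaging, leaving out libraries and fitting only the groups compared, as the replicate block also does, leave fewer samples. Pairing by number was examined only between control XY and Dfo XY in culture, so the block has no shown basis in the other comparisons. The cause of the other shifts was not tested. Where 1 library of a group remained, it was assumed to vary like the other groups. The depth behind each TPM is unknown.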
